A study of Mus musculus with 6 samples.

Results

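The genes described here were the gap junction and water channel genes of mouse skin, namely the connexins *Gja1*, *Gjb2*, *Gjb5* and *Gjb6* and the aquaporins *Aqp1*, *Aqp3*, *Aqp5* and *Aqp9*. They were 8 of the 26579 genes in the count table, found by matching the table's Ensembl identifiers to GENCODE M21 gene symbols on GRCm38, and 7 of the 8 were among the 15102 genes that passed the low-count filter. The libraries came from the dorsal neck skin of 3 female YAP2-5SA-∆C mice, named TG1 to TG3 by replicate, and of 3 female wild type littermates, named WT1 to WT3, at postnatal day 33, which the labels write as P33. The transgene encodes an active, truncated form of YAP2, the nuclear effector of the Hippo pathway, and is driven in basal Keratin5/14-positive keratinocytes. The mice were taken when the skin phenotype first became visible, and RNA came from punch biopsies of whole skin rather than from sorted keratinocytes. The comparison asked how the RNA of these channel genes differed between the genotypes. The genes were put together with their genotype differences in these 6 libraries already known, so those differences are a description and carry no p-value.

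Connexins assemble into rings in the cell membrane that dock with rings of a neighbouring cell, and the resulting gap junctions let ions and small metabolites pass between the cells. Aquaporins are membrane channels for water, and the aquaglyceroporins among them, such as *Aqp3* and *Aqp9*, also carry glycerol. In the epidermis several connexins are laid down in different layers, inherited changes in some of them cause skin disease and deafness, and *Aqp3* supplies the basal layers with water and glycerol.

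The promoters of these genes were searched for the letters bound by TEAD factors, the DNA-binding partners of YAP, and by AP-1, which often binds beside them. RefSeq gave 9 promoter windows for the 8 genes on GRCm38.p6, each of 300 bases, from 250 bases before the annotated start of transcription to 50 bases after it. The TEAD letters GGAATG, searched on both strands, occurred in 0 of the 9 windows, against 14.7% of 32851 windows over all genes. The AP-1 letters TGANTCA, which read alike on both strands, occurred in 2 of the 9 windows, against 7.81% of all windows, and the stretches around both matches are shown because they are the matches found, with the AP-1 letters in capitals.
*Gja1*, chr10:56377270-56377299, plus strand: ctccttccagtTGAGTCAgtggcttgaaac
*Aqp9*, chr9:71162639-71162668, minus strand: catttggtgacTGAGTCAtctgaaacaaac
The match lay at position -19 from the RefSeq start of *Gja1* and at position -24 from 1 of the RefSeq starts of *Aqp9*. The RefSeq start of *Gja1* lies before the first base of the gene in GENCODE M21, so the distance to the GENCODE start is larger. The match is a description of these letters and not a measured binding site.

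The 6 libraries held between 11225705 and 19505036 counts assigned to genes. Levels are given as CPM, which is the count divided by the library's total count and brought to the same total for all libraries, scaled by the trimmed mean of M values (TMM). Fold changes are log2 of TG over WT. Genes were called by edgeR's quasi-likelihood test at a false discovery rate (FDR) of 0.05. Of all tested genes, 1.91% were called in either direction, with 1.44% higher and 0.464% lower in TG, and 26.3% had an unadjusted p under 0.05. Every TG library lay above every wild type library for 15.5% of tested genes and below for 18.2%. TG2 was the lowest of all 6 libraries for 26.8% of tested genes and the highest for 26.1%, against 10.6% to 20.5% and 9.44% to 20.4% for each of the other libraries, so values are also given without it. It was not the only library at a distance from its group, since the chi-square per degree of freedom between replicates was 67.2 and 56.7 for WT3 with WT1 and WT2, and 24.9 and 31.4 for TG2 with TG1 and TG3. The same value was 30.2 for WT1 with WT2 and 12.4 for TG1 with TG3. Biopsies of skin hold many cell types, and a smaller number of cells of a type cannot be told apart from less RNA per cell in these data.

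Summed levels of compartment markers differed between the genotypes and between the TG mice. The 9 measured hair shaft and inner root sheath genes summed to between 13316 and 16627 CPM in wild type skin, and to 7067, 1452 and 8922 CPM in TG1, TG2 and TG3. Of these genes, 9 of 9 lay lower in every TG library, as 18.2% of all tested genes did. The same 9 were lowest in TG2, as 26.8% of all tested genes were. Of the 9, edgeR's quasi-likelihood test, voom and DESeq2 called 0. The likelihood-ratio test called 8 lower, where it called 4.87% of all tested genes lower. The 6 basal keratinocyte genes, among them *Krt5* and *Krt14*, summed to between 3312 and 4052 CPM in wild type skin and to 5580, 7205 and 5961 CPM in TG skin, and the 5 measured suprabasal genes to between 3856 and 4728 CPM against 5617, 9327 and 5047 CPM. Both sums were highest in TG2. Every TG library lay above every wild type library for 4 of the 6 basal and 2 of the 5 suprabasal genes, against 15.5% of all tested genes. Of the basal genes 1, *Krt14*, was called higher by edgeR's quasi-likelihood test, and of the suprabasal genes 0. That test called 1.44% of all tested genes higher. The part of these shifts in the channel genes was not tested.

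**Figure D1:**
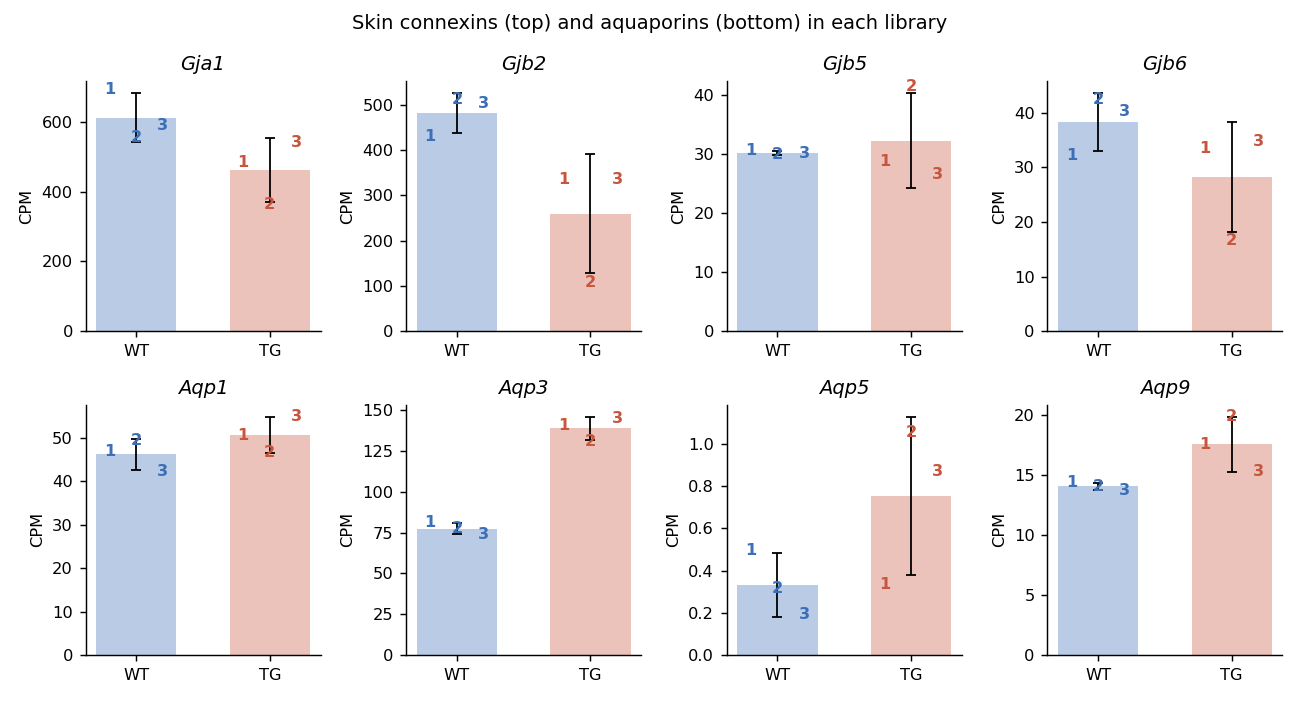
Level of the 4 connexins (top row) and 4 aquaporins (bottom row) in CPM, on axes that start at 0. Bars are group means and error bars the SD (n = 3 per group), and the numerals mark replicates 1 to 3 of wild type (blue, WT) and YAP2-5SA-∆C (red, TG) at their own values. *Gja1* and *Gjb2* lay lower and *Aqp3* and *Aqp9* higher in every TG library, and *Gjb2* was 108 CPM in TG2 against 334 and 335 CPM in TG1 and TG3.

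Among the connexins, *Gja1* and *Gjb2* were lower in every TG library than in any wild type library, an order that 18.2% of all tested genes shared, while *Gjb5* and *Gjb6* overlapped between the groups. The median log2 fold change of the 4 connexins was -0.42, and -0.19 without TG2, against -0.01 over all tested genes. edgeR's quasi-likelihood test called 0 of the 4, with 1 at an unadjusted p under 0.05, and voom also called 0. The likelihood-ratio test, which called 10.4% of all tested genes, and DESeq2, which called 10.5%, called 0 of the 4 as well. Without TG2 the quasi-likelihood test called 1, *Gjb2*, as lower, where it called 5.46% of all tested genes, 2.74% as lower and 2.72% as higher. Nothing is read from these counts, because the genes were chosen on this contrast.

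*Gja1* encodes Cx43, the most widely expressed connexin of the body, which is found in the basal and spinous layers, in hair follicles, in fibroblasts and in vessels. The gene lies on chromosome 10 from 56377330 to 56402513 on the plus strand. Its level was 692, 555 and 589 CPM in WT1, WT2 and WT3, and 483, 363 and 540.2 CPM in TG1, TG2 and TG3. The groups did not overlap, although WT2 and TG3 lay close to each other. The means were 612 ± 71.0 and 462 ± 90.5 CPM (SD, n = 3), a log2 fold change of -0.41 ± 0.16 (SE). Leaving out 1 library at a time gave log2 fold changes from -0.53 to -0.24, the smallest without TG2.

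*Gjb2* encodes Cx26, which is sparse in resting interfollicular epidermis of many sites and abundant in hair follicles and sweat ducts, and whose inherited changes cause deafness with or without thickened skin. Its locus is on chromosome 14 from 57098600 to 57104702 on the minus strand. Its level was 430, 511 and 502 CPM in the wild type replicates, and 334, 108 and 335 CPM in the TG replicates. The groups did not overlap, and the spread of the TG group came mainly from TG2. The means were 481 ± 44.6 and 259 ± 131 CPM (SD, n = 3), a log2 fold change of -0.89 ± 0.39 (SE), and -0.51 ± 0.09 without TG2. The difference of TG2 from the mean of TG1 and TG3, on the log2 CPM scale, was -1.63 for *Gjb2* and -2.49 for *Krt71*, a keratin of the inner root sheath.

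*Gjb6* encodes Cx30, which pairs with Cx26 in the inner ear and is found in palmoplantar epidermis, hair follicles and thickened skin. It is the neighbour of *Gjb2* on chromosome 14, from 57123303 to 57133611 on the minus strand. Its level was 32.2, 42.4 and 40.3 CPM in wild type skin and 33.5, 16.7 and 34.7 CPM in TG skin. TG1 and TG3 lay inside the wild type range, and TG2 lay below it. The log2 fold change was -0.44 ± 0.27 (SE), and -0.15 ± 0.13 without TG2.

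*Gjb5* encodes Cx31.1, a connexin of the upper epidermal layers. Its locus is on chromosome 4 from 127354809 to 127358181 on the minus strand. Its level was 30.6, 29.9 and 30.0 CPM in wild type skin and 28.8, 41.5 and 26.5 CPM in TG skin. The wild type libraries were nearly alike, TG1 and TG3 lay below them and TG2 above. The log2 fold change was 0.09 ± 0.16 (SE) and had the opposite sign, -0.11 ± 0.07, without TG2.

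Several connexin genes lie beside each other on the chromosomes, and the place of TG2 among the libraries differed between these groups. *Gja3*, *Gjb2* and *Gjb6* span 99152 bases of chromosome 14, and 3 of 3 were lowest in TG2, as 26.8% of all tested genes were. *Gja4* and *Gjb5* lie within 46761 bases of chromosome 4, and both were highest in that library, as 26.1% of all tested genes were. These groupings were noted after the values were seen, and neighbouring genes are not independent measurements. *Gja3*, which is best known from the lens, was 6.47, 10.03 and 8.07 CPM in wild type skin and 4.22, 0.53 and 3.36 CPM in TG skin. The same difference of TG2 from the mean of TG1 and TG3 was -2.58 for *Gja3* and -1.03 for *Gjb6*, against 0.59 for *Gjb5* and 0.33 for *Gja4*. The hair genes were lowest and the suprabasal genes highest in the same library, as given above, and their part in this order was not tested.

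**Figure D2:**
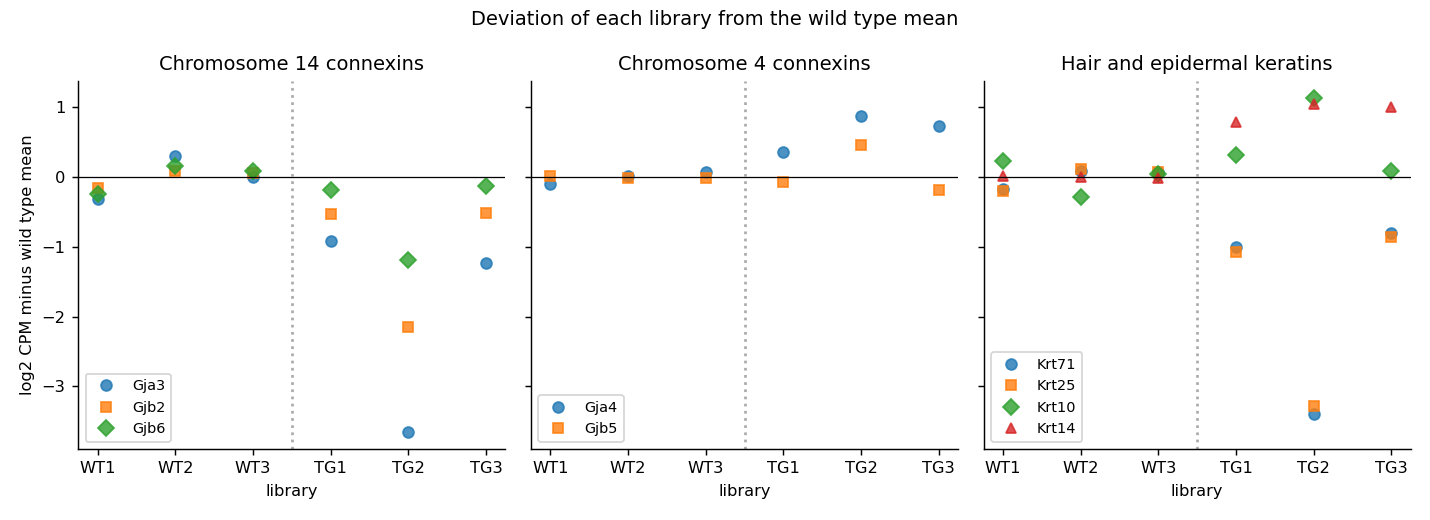
Log2 CPM of each library minus the mean of the wild type libraries, for *Gja3*, *Gjb2* and *Gjb6* of chromosome 14 (left), *Gja4* and *Gjb5* of chromosome 4 (middle) and 4 keratins of hair and epidermis (right). Each symbol is 1 gene in 1 library. TG2 is the lowest library for the 3 connexins of chromosome 14 and the highest for *Gja4* and *Gjb5*, and among the keratins it is lowest for *Krt71*.

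Outside the members, 16 further connexins were listed, of which 14 were in the table and 7 passed the filter. edgeR's quasi-likelihood test called 0 of the 7, with 2 at an unadjusted p under 0.05, and voom and DESeq2 also called 0. The likelihood-ratio test called 1, *Gja3*, as lower, where it called 4.87% of all tested genes lower. *Gja3* had a log2 fold change of -1.60 ± 0.57 (SE) at an FDR of 0.139 by edgeR's quasi-likelihood test, and -1.09 at an FDR of 0.0424 without TG2. *Gja4*, the Cx37 gene of arterial endothelium, was 1.59, 1.72 and 1.80 CPM in wild type skin and 2.22, 3.23 and 2.93 CPM in TG skin. Its groups did not overlap, and its log2 fold change was 0.71 ± 0.20 (SE) at an FDR of 0.0836 by edgeR's quasi-likelihood test. The 7 measured endothelial genes summed to between 120 and 135 CPM in wild type and between 139 and 165 CPM in TG skin, and their part in *Gja4* was not tested.

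*Gjc1*, *Gja5* and *Gjc3* also passed the filter, overlapped between the groups and had log2 fold changes of 0.31 ± 0.15, -0.07 ± 0.26 and 0.07 ± 0.16 (SE). The exons of *Gja5* overlap those of *Gpr89* on the opposite strand, so its counts are uncertain. *Gja6*, *Gjb1*, *Gjd2*, *Gjd3*, *Gjd4* and *Gje1* were in the table at between 0 and 20 counts a library and were not tested.

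For the aquaporins the difference of TG2 from the mean of TG1 and TG3, on the log2 CPM scale, was -0.12 for *Aqp3*, -0.18 for *Aqp1* and 0.28 for *Aqp9*. *Aqp3* and *Aqp9* were higher in every TG library than in any wild type library, *Aqp1* and *Aqp5* overlapped, and 15.5% of all tested genes lay higher in this way, and the median log2 fold change of the 3 tested genes was 0.32, against -0.01 over all tested genes. edgeR's quasi-likelihood test called 1 of the 3, *Aqp3*, as higher, where 1.44% of all tested genes were called higher. Nothing is read from that count, since the contrast had chosen the genes.

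*Aqp3* encodes the glycerol and water channel of the basal and suprabasal keratinocyte membrane, and loss of it in mice leaves the skin dry and less elastic. It lies on chromosome 4 from 41092722 to 41098183 on the minus strand. Its level was 81.1, 77.5 and 73.9 CPM in wild type skin and 140.4, 131 and 145 CPM in TG skin. The lowest TG library lay well above the highest wild type library, and TG2 was the lowest of the TG libraries. The means were 77.5 ± 3.63 and 139 ± 7.22 CPM (SD, n = 3), a 1.79-fold difference with a log2 fold change of 0.84 ± 0.07 (SE). Leaving out 1 library at a time gave log2 fold changes from 0.81 to 0.90, and *Aqp3* was not called when WT2, WT3 or TG3 was the library left out, where the quasi-likelihood test called 0 genes of the whole table.

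*Aqp9* encodes a second aquaglyceroporin, found in liver and in leukocytes, neutrophils above all. It lies on chromosome 9 from 71110659 to 71168682 on the minus strand. Its level was 14.4, 14.1 and 13.8 CPM in wild type skin and 17.6, 19.9 and 15.3 CPM in TG skin. The groups did not overlap, and TG2 held the highest value. The log2 fold change was 0.32 ± 0.11 (SE), and 0.24 ± 0.10 without TG2. The 5 measured neutrophil genes summed to 15.2, 15.8 and 37.6 CPM in wild type skin and to 65.2, 37.3 and 68.5 CPM in TG skin, where TG2 was the lowest of the 3. Of the 4 tested neutrophil genes, 2, *Cxcr2* and *Mmp9*, were called higher by edgeR's quasi-likelihood test, which called 1.44% of all tested genes higher. *S100a9* and *Csf3r* were not called. *S100a9*, which held 20.6 CPM of the sum in WT3, overlapped between the groups, at an FDR of 0.298 by the same test. The part of neutrophils in *Aqp9* was not tested.

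*Aqp1* encodes the water channel of capillary endothelium and red cells. The gene lies on chromosome 6 from 55336432 to 55348555 on the plus strand. Its level was 46.9, 49.5 and 42.3 CPM in wild type skin and 50.5, 46.6 and 55.0 CPM in TG skin. The ranges overlapped, and the log2 fold change was 0.13 ± 0.09 (SE). The 6 erythrocyte genes summed to between 102 and 153 CPM in wild type and between 43.0 and 101 CPM in TG skin. Of these, 6 of 6 were lowest in TG2, as 26.8% of all tested genes were. The 7 endothelial genes, with sums of 120 to 135 CPM in wild type and 139 to 165 CPM in TG skin, had positive log2 fold changes in 7 of 7. Of the 6 erythrocyte and 7 endothelial genes, 0 were called by edgeR's quasi-likelihood test. The part of either cell type in *Aqp1* was not tested.

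*Aqp5* encodes the water channel of the apical membrane of secretory glands, sweat glands among them. Its locus is on chromosome 15 from 99590782 to 99594829 on the plus strand. It had 9, 6 and 2 counts in wild type skin and 6, 18 and 14 counts in TG skin, too few to pass the filter of 1 CPM in 3 libraries, so no fold change is given. These counts were 0.49, 0.31 and 0.19 CPM and 0.33, 1.06 and 0.87 CPM, and the groups overlapped. The exocrine gland markers *Bpifa2* and *Smgc* had at most 1 count in any library, and the 7 measured exocrine genes summed to between 17.2 and 28.0 CPM in wild type and between 14.6 and 18.5 CPM in TG skin, most of it *Amy1*. Of these genes *Krt8*, a keratin of simple epithelia, was 2.63, 3.71 and 3.70 CPM in wild type and 1.28, 0.47 and 0.87 CPM in TG skin and was called lower by edgeR's quasi-likelihood test, with a log2 fold change of -1.92 ± 0.34 (SE). Its partner *Krt18* had a log2 fold change of -2.12 ± 0.54 (SE) at an FDR of 0.0740 by the same test. *Krt8* had 8 to 71 counts a library and *Krt18* 5 to 110. *Amy1* had a log2 fold change of 0.001 ± 0.18 (SE) at an FDR of 0.997 by that test. Of the 3 tested exocrine genes 1 was called lower, where 0.464% of all tested genes were. Their part in *Aqp5* was not tested.

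Of 8 further aquaporins, 6 were in the table and 2 passed the filter. edgeR's quasi-likelihood test called 0 of these 2, with 0 at an unadjusted p under 0.05, and the likelihood-ratio test, voom and DESeq2 also called 0. *Aqp4*, a water channel of skeletal muscle and brain, was 5.32, 17.2 and 19.5 CPM in wild type and 9.77, 6.52 and 3.43 CPM in TG skin. Its log2 fold change was -1.08 ± 0.53 (SE) at an FDR of 0.245 by edgeR's quasi-likelihood test. The 5 skeletal muscle genes summed to 1094, 5860 and 4729 CPM and to 2775, 1583 and 985 CPM in the same libraries, where TG3 was again the lowest library and WT2 and WT3 again the highest pair. Their part in *Aqp4* was not tested. *Aqp7*, the adipocyte glycerol channel and the neighbour of *Aqp3* on chromosome 4, was 6.03, 8.04 and 7.31 CPM against 4.44, 6.28 and 10.3 CPM, a log2 fold change of -0.03 ± 0.30 (SE) at an FDR of 0.958 by the same test. *Mip*, *Aqp2*, *Aqp11* and *Aqp12* were in the table at 0 to 10 counts a library, and *Aqp6* and *Aqp8* were not analysed here.

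**Figure D3:**
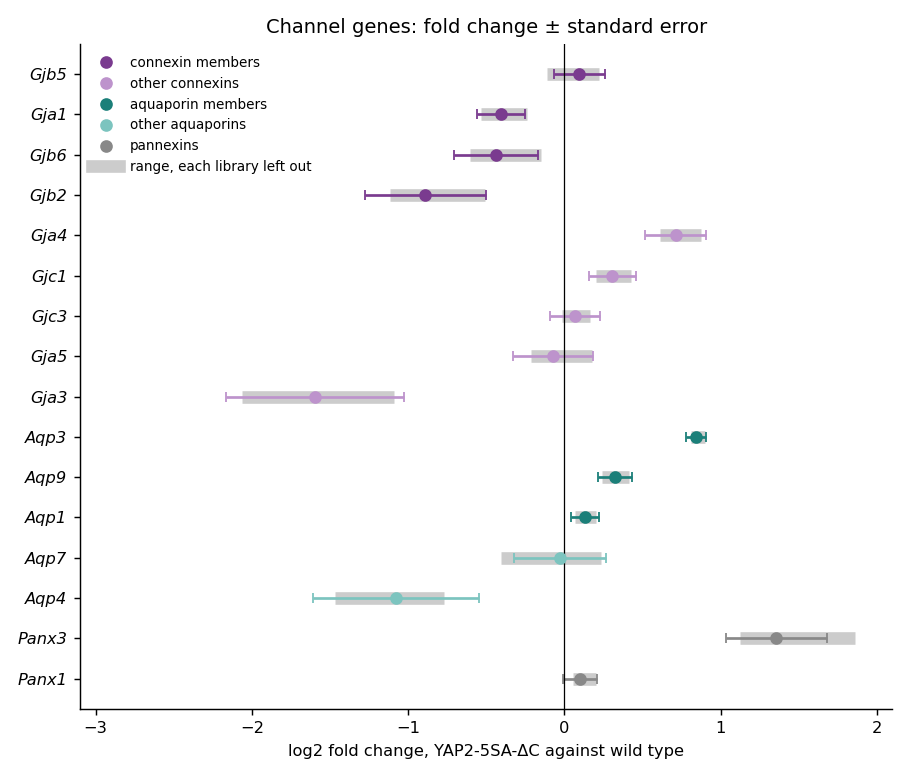
Log2 fold change of tested connexins, aquaporins and pannexins, YAP2-5SA-∆C over wild type, as points with error bars of 1 SE (n = 3 per group). Grey bars give the range of the fold change when each library is left out in turn. The grey bar of *Aqp3* runs from 0.81 to 0.90 and that of *Gjb2* from -1.12 to -0.51, while that of *Gjb5* spans 0.

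Levels of different genes are compared per length of merged exons, as TPM, in which the length-scaled counts of all genes of a library are brought to the same total, and the values that follow are levels and not differences. In wild type skin *Gjb2* was the most abundant of the 4 connexins at 458 ± 16.8 TPM (SD, n = 3), followed by *Gja1* at 138 ± 24.5, *Gjb5* at 40.4 ± 2.91 and *Gjb6* at 32.7 ± 2.83 TPM. The ranges of neighbours in this order did not overlap. In TG skin the order of the means was the same, with *Gjb2* at 258 ± 130 TPM, *Gja1* at 108 ± 20.3, *Gjb5* at 44.8 ± 11.3 and *Gjb6* at 25.3 ± 9.02 TPM, but the ranges of *Gjb2* and *Gja1* overlapped, through TG2, and the other neighbours did not. This order depended on the length used. By the longest transcript, which for *Gja1* is shorter than its merged exons, *Gja1* stood at 322 TPM in wild type and 250.2 TPM in TG skin, against 406 and 227 TPM for *Gjb2*. On the same scale *Gjb5* and *Gjb6* stood at 35.8 ± 2.39 and 36.9 ± 3.35 TPM in wild type skin (SD, n = 3), with overlapping ranges and the opposite order of means, and at 39.5 and 28.3 TPM in TG skin.

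The sum of all connexins was 854 ± 32.1 TPM in wild type and 655 ± 121 TPM in TG skin (SD, n = 3). *Gjb2* made up 49.3%, 56.5% and 55.6% of it in the wild type replicates and 45.9%, 20.8% and 46.1% in the TG replicates. Its share was lower in every TG library than in any wild type library, and lowest in TG2. Among the aquaporins *Aqp3* led in both groups, at 97.6 ± 10.1 TPM in wild type and 181.5 ± 9.25 TPM in TG skin, ahead of *Aqp1* at 40.5 ± 4.10 and 46.1 ± 3.35 TPM and *Aqp9* at 7.82 ± 0.61 and 10.2 ± 1.45 TPM. The share of *Aqp3* in the aquaporin sum went from 61.9% ± 2.18 to 73.4% ± 0.58, and the groups did not overlap. The sum itself was 157 ± 11.4 and 247 ± 11.6 TPM.

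**Figure D4:**
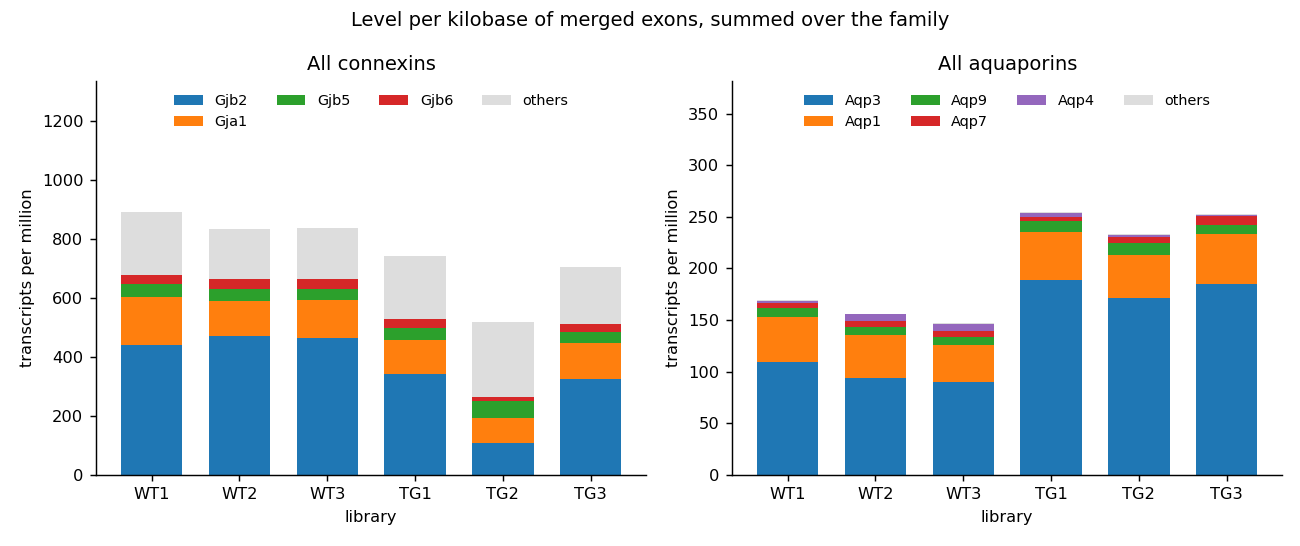
Level per kilobase of merged exons, in TPM, stacked over all connexins (left) and all aquaporins (right) in each library, on axes that start at 0. Each colour is 1 gene, and the genes not named in the legend are pooled as others. The *Gjb2* block is 20.8% of the connexin column in TG2 and between 45.9% and 56.5% in the other libraries, and the *Aqp3* block is larger in every TG library than in any WT library.

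For each tested member, the genes with the most similar profile over the 6 libraries were found by the root mean square distance between centred log2 CPM profiles. For *Aqp3* these were *Ctss*, a lysosomal protease of antigen-presenting cells, at a distance of 0.034 and *Vav1*, a signalling protein of blood cells, at 0.038, against a median distance of 0.45 over all genes. The 6 macrophage genes summed to between 306 and 361 CPM in wild type and between 442 and 483 CPM in TG skin. Of these 6, edgeR's quasi-likelihood test called 2 higher, *Csf1r* and *Mrc1*, where it called 1.44% of all tested genes higher. Of the 6 basal keratinocyte genes it called 1 higher, *Krt14*, with a log2 fold change of 0.95 ± 0.11 (SE). The part of either cell type in *Aqp3* was not tested. *Aqp9* was closest to *Pla2g4a*, a phospholipase that releases arachidonic acid, at 0.020 and *Rbbp8*, a DNA repair gene, at 0.031. *Aqp1* was closest to *Zfp595* at 0.028 and *Cdr2l* at 0.030. For these profiles the 6 libraries are the same, so the distances are descriptions with no test. *Gjb2* was closest to *St8sia6* and *Vtcn1*, both at 0.079, *Gjb6* to *Zfp612* at 0.088 and *Snx24* at 0.090, *Gja1* to *A430106G13Rik* at 0.053 and *Pdcd4* at 0.069, and *Gjb5* to *Arhgap40* at 0.046 and *Phyhip* at 0.061. *St8sia6* followed *Gjb2* closely, at 21.2, 24.7 and 25.4 CPM in wild type and 14.3, 5.28 and 15.8 CPM in TG skin.

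Pannexins form single-membrane channels related in shape to connexins. Of the 3, *Panx1* and *Panx3* passed the filter, and edgeR's quasi-likelihood test called 0 of these 2, with 1 at an unadjusted p under 0.05. voom also called 0, while the likelihood-ratio test and DESeq2 each called 1, *Panx3*, as higher, where these tests called 5.52% and 6.35% of all tested genes higher. *Panx3*, which is found in skin, cartilage and bone, was 13.7, 6.998 and 5.32 CPM in wild type and 23.9, 23.8 and 19.6 CPM in TG skin. The groups did not overlap, its log2 fold change was 1.36 ± 0.32 (SE) and its FDR was 0.0652 by edgeR's quasi-likelihood test. Leaving out 1 library at a time gave log2 fold changes from 1.13 to 1.86 and FDRs from 0.0299, without WT1, to 0.211 by the same test, and without TG2 the values were 1.32 and 0.0757. *Panx1* had a log2 fold change of 0.10 ± 0.11 (SE) at an FDR of 0.591 by the same test, and *Panx2* had at most 2 counts a library. The 6 sebaceous gland genes summed to 3523, 3199.8 and 2701 CPM in wild type and to 4052, 5742 and 5877 CPM in TG skin. Most of this was *Scd1*, at 3050, 2841 and 2419 CPM in wild type and 3445, 5051 and 5189 CPM in TG skin. edgeR's quasi-likelihood test called 0 of the 6, with 4 at an unadjusted p under 0.05, and voom called 0, while the likelihood-ratio test called 3 and DESeq2 called 4 higher. Of the 6 genes, 4 were higher in every TG library than in any wild type library, where 15.5% of all tested genes were so ordered. Among them *Far2*, which makes fatty alcohols, was 236, 138 and 109 CPM in wild type and 354, 432 and 395 CPM in TG skin, with WT1 the highest and WT3 the lowest wild type library, as for *Panx3*. *Mgst1* and *Mc5r* of the same list overlapped between the groups. The log2 fold change of *Mc5r* was -0.24 ± 0.21 (SE), and *Mgst1* was highest in WT2 among the wild type libraries. The part of sebaceous glands in *Panx3* was not tested.

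Genes that work with these channels were counted from lists. Of the 9 binding partners and regulators of Cx43, edgeR's quasi-likelihood test called 0, with 3 at an unadjusted p under 0.05, voom and the likelihood-ratio test called 0, and DESeq2 called 2, *Ctnnb1* among them, as lower, where DESeq2 called 4.18% of all tested genes lower. *Ctnnb1*, which links cadherin junctions to the cytoskeleton and carries Wnt signals, was 780.3, 773 and 749.8 CPM in wild type and 635, 513 and 605 CPM in TG skin, with a log2 fold change of -0.39 ± 0.09 (SE) and an FDR of 0.0635 by edgeR's quasi-likelihood test. Exons of *Ctnnb1* overlap those of *Ulk4* on the opposite strand, so reads may be shared. In all, 4 of the 9 genes were lower in every TG library than in any WT library, where 18.2% of all tested genes were so ordered. Another 1 of the 9 was higher in every TG library, where 15.5% of all tested genes were.

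Of the 9 genes that release or use glycerol, the solute that *Aqp3* and *Aqp9* also carry, edgeR's quasi-likelihood test called 0, with 4 at an unadjusted p under 0.05, and voom called 0. The likelihood-ratio test called 3 higher, namely *Mgll*, *Gk* and *Pld2*, and DESeq2 called 4 higher, these 3 and *Pld1*, where these tests called 5.52% and 6.35% of all tested genes higher. *Gk* and *Pld2* are named here after their values were seen. *Mgll*, which splits monoacylglycerol into glycerol and a fatty acid, was 324, 243 and 192 CPM in wild type and 413, 452 and 430.3 CPM in TG skin, with a log2 fold change of 0.77 ± 0.18 (SE) and an FDR of 0.0620 by edgeR's quasi-likelihood test. Here too WT1 was the highest and WT3 the lowest wild type library, the order of *Far2*, and the part of sebaceous glands in *Mgll* was not tested. *Pld1*, which encodes a phospholipase D, had a log2 fold change of 0.36 ± 0.09 (SE) at an FDR of 0.0761 by the same test. The groups did not overlap for 4 of the 9, with the TG libraries above, where 15.5% of all tested genes were so ordered. Of the 5 volume-regulated anion channel genes of the *Lrrc8* family, edgeR's quasi-likelihood test called 0, with 1 at an unadjusted p under 0.05, and the likelihood-ratio test, voom and DESeq2 also called 0. *Lrrc8d* had a log2 fold change of 0.39 ± 0.14 (SE) at an FDR of 0.131 and *Lrrc8b* of 0.14 ± 0.12 (SE) at an FDR of 0.473, both by the same test.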

How the data were processed

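The authors mapped paired-end reads of 6 skin libraries, 3 per group, to GRCm38 with TopHat2 and Bowtie2 and assigned uniquely mapped reads to genes with HTSeq. The submitters' processing notes give TopHat2 2.0.12 and Bowtie2 2.1.0. They deposited the whole-number count of reads per Ensembl gene and library, not normalized. The annotation release and strand setting are not given in the sources used here. The labels name a stranded total RNA kit and the study's methods mRNA libraries, so whether genes that overlap on opposite strands share reads could not be settled. Symbols and lengths came from GENCODE M21, in which 558 identifiers of the table were absent. Genes with at least 1 CPM in 3 libraries were kept, a criterion worded as in the study's methods though the study's own set of tested genes was not used here, and 15102 were tested with edgeR 4.0.16 (TMM scaling, glmQLFit and glmQLFTest, Benjamini-Hochberg adjusted, FDR threshold 0.05) in R 4.3.3. Alternatives were the study's own tests (likelihood-ratio in edgeR, voom in limma 3.58.1), DESeq2 1.42.0, other scalings and filters, the replicate number as a block and leaving out each library. Log2 CPM used a prior count of 2. The fit was tested on simulated data. Replicates of a group differed beyond sampling noise (chi-square per degree of freedom from 12.4 to 67.2 between replicate pairs), and no libraries were merged. The labels call replicates separate samples and the study separate mice. Each replicate number is shared between the groups without a stated link.

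The members and lists were chosen with earlier results of these data known. All 8 members and the measured genes of the other connexins, aquaporins and pannexins are named, except that some genes are not reported here. In each further channel or pathway list the genes called (at most 4) are named, or where none was called the 2 with the lowest p, and of each marker list at most its first 3 genes. *Krt71*, *Krt8*, *Krt18*, *Far2*, *Mc5r*, *Cxcr2*, *Mmp9* and *Mrc1* fall outside that rule and were named after their values were seen. For each member the 2 tested genes with the closest profile are named. A depth of 3 counts was 0.154 to 0.267 CPM. Sequences came from RefSeq promoter windows on GRCm38.p6.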

Additional observations from a re-analysis of the deposited data

How the results depend on the processing

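The number of genes called over the whole table, 288, was 357 with RLE scaling, 416 with upper-quartile scaling, 306 with at least 10 counts in every sample and 249 with voom, but 497 with no low-count filter, 1568 with the likelihood-ratio test and 1590 with DESeq2. Leaving out 1 library gave 0 to 816 genes: 142 without WT1, 83 without TG1 and 816 without TG2. It gave 0 when WT2, WT3 or TG3 was left out, where edgeR's quasi-likelihood test had 2725, 2844 and 3692 genes at an unadjusted p under 0.05. With the replicate number as a block 0 genes were called, with 2949 at an unadjusted p under 0.05, and the member aquaporins went from 1 called to 0. Same-numbered libraries did not deviate together (correlations of -0.332, -0.228 and -0.0501). With 3 libraries per group these correlations cannot exclude that the numbers pair mice. Whether they do is not known, and the numbers are used only as names.

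The count of called genes was 1 with the likelihood-ratio test for the other connexins (0 to 1 on leaving out 1 library), 1 with the likelihood-ratio test and 1 with DESeq2 for the pannexins (0 to 1), 2 with DESeq2 for the Cx43 partners, and 3 with the likelihood-ratio test and 4 with DESeq2 for the glycerol genes (0 to 1). On leaving out 1 library the member connexins had 0 to 1 called and the member aquaporins 0 to 1. The log2 fold changes of *Aqp7* (-0.41 to 0.23), *Gja5* (-0.21 to 0.18), *Gjb5* (-0.11 to 0.22) and *Gjc3* (-0.012 to 0.17) changed sign on leaving out 1 library. Without mitochondrial genes in the total, levels per length of *Gjb2* and *Gja1* in wild type skin were 697 and 209 TPM. The causes of these changes were not tested. With 3 mice per group the standard errors of *Gjb2*, *Gjb6*, *Gjb5* and *Gja1* were above the median of 0.11 over all tested genes. *Aqp5*, with at most 18 counts a library, was left out by the low-count filter. Without the filter it was among the 4 member aquaporins tested, of which 1, *Aqp3*, was called.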
